A study of Homo sapiens with 10 samples.

Results

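Some small RNAs that were catalogued as microRNAs (miRNAs) are pieces of other, abundant noncoding RNAs. The data here describe 9 human probe sets of that kind on a miRNA microarray: hsa-miR-1246_st, hsa-miR-1260_st, hsa-miR-1274a_st, hsa-miR-1274b_st, hsa-miR-1280_st, hsa-miR-1308_st, hsa-miR-720_st, hsa-miR-886-3p_st and hsa-miR-886-5p_st, named below without prefix and suffix. They were taken by name as miRNAs whose sequence is a fragment of a tRNA, of U2 small nuclear RNA (snRNA) or of a vault-like RNA, and all 9 named were rows of the deposited value table, among 1100 human mature miRNA probe sets.

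The cells were HEK-293, a human embryonic kidney line, transfected with a small interfering RNA (siRNA, a short duplex that directs the cleavage of a matching RNA) at a final concentration of 10 nM. The groups were LINC00324 siRNA 2, LINC00324 siRNA 1, LOC400043 siRNA 2, LOC400043 siRNA 1 and a scramble siRNA, with 2 arrays each and 10 arrays in all, and every group shared the cell line, the transfection reagent and the siRNA dose. LINC00324 and LOC400043 are long noncoding RNAs, and the study asked which miRNAs change in level when either is silenced. The arrays carry no reading of either long RNA, so how far each was silenced is not known. The arrays of a group are called biological replicates, but whether their cells were cultured separately is not stated. The p-values therefore rest on the spread between arrays, which may be technical.

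A canonical miRNA is cut from a hairpin precursor by Drosha and Dicer and then guides an Argonaute protein to messenger RNAs through its seed, the bases near its 5′ end. A tRNA carries an amino acid to the ribosome and receives the bases CCA at its 3′ end after transcription, and cells cleave tRNAs into shorter fragments. U2 snRNA is a core part of the spliceosome. The vault-like RNA VTRNA2-1, also called nc886, binds the kinase PKR and keeps it inactive. Because their reads map to these RNAs, most of the 9 entries were later withdrawn from the miRNA catalogue. A probe set reads any labelled RNA that holds the complementary bases, so a fragment and its longer parent RNA are not separated in these values.

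Mature sequences were available for miR-1246, which comes from U2 snRNA, and for miR-1260, now named miR-1260a, which corresponds to the 3′ end of a leucine tRNA. They are shown with miR-1260b, a near-identical miRNA with a probe set of its own that is not one of the 9, because the array must tell the last pair apart. Each is written 5′ to 3′ from RefSeq on GRCh38.p14, with the seed (bases 2 to 8) in capitals.
hsa-miR-1246: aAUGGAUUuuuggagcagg
hsa-miR-1260a: aUCCCACCucugccacca
hsa-miR-1260b: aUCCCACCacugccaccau

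The miR-1246 sequence has 19 bases and lies at chr2:176601024-176601042 on the minus strand. Of the 1080 human probe sets with a sequence in the authors' table, 1, its own, carried its seed. The miR-1260a sequence has 18 bases, 61.1% of them G or C, and lies at chr14:77266231-77266248 on the plus strand. Its last bases are CCA, the ending that tRNAs receive, and 18 of the 1080 sequences (1.67%) end that way. These bases are also encoded in the annotated hairpin at that locus, and the parent RNA of the signal was not tested. The miR-1260b sequence lies at chr11:96341447-96341465 on the plus strand and differs from miR-1260a by the substitution U9A, counted from the 5′ end, and by 1 extra base at the 3′ end. The seed UCCCACC was carried by 2 of the 1080 probe sets, those of miR-1260 and miR-1260b. The annotated miR-1246 hairpin spans chr2:176600980-176601052, and the mature bases are in capitals within it.
mir-1246 hairpin: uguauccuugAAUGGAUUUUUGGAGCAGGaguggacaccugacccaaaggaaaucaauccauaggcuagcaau

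Levels are log2 signals, and a difference is a log2 difference with its standard error (SE). The detection floor, set on the mean of the 10 arrays, was 1.30, the level that 95% of 2837 plant miRNA probe sets on the same arrays did not pass. Above it lay 332 of the 1100 human probe sets and 7 of the 9 fragments. Each value is a level in bulk RNA, in which fewer cells holding a fragment and less of it per cell cannot be told apart. Replicate arrays correlated at r between 0.973 and 0.987 over detected probe sets, and the number of arrays limits the precision. All 6 of the miRNAs listed as markers of the HEK-293 line were detected, as were 2 of 10 markers of liver, muscle, blood and neurons (miR-451 and miR-124), and the highest mean among those 10 was 1.81. The median detected signal was 3.53 and 3.83 on the LINC00324 siRNA 2 arrays, 4.20 and 4.14 on the LINC00324 siRNA 1 arrays and 4.42 and 4.21 on the scramble arrays. The LOC400043 arrays were normalized by the authors in a separate run, so they are set against scramble only where the authors gave scramble values of that run, which was the case for miR-1246 and miR-1260.

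After LINC00324 silencing the U2 snRNA fragment fell and the glycine tRNA fragment rose. miR-1246 was 2.25-fold lower and miR-1308, which matches the 5′ part of a glycine tRNA, was 1.68-fold higher than in scramble cells, as the mean of both siRNAs. These were the only fragments of the 7 tested that passed the test. Of all 332 probe sets tested, 9.64% passed, 9.04% lower and 0.602% higher, and the other probe set that rose was that of miR-4298, named here after its value was seen. The median difference was −0.08 over the 7 fragments and −0.13 over all tested probe sets.

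miR-1246 had log2 signals of 5.23 and 5.57 with LINC00324 siRNA 2 and 5.32 and 5.28 with siRNA 1, against 6.67 and 6.36 in scramble cells. Every silenced array lay below both scramble arrays, as in 19.9% of all tested probe sets, and the siRNA groups overlapped each other. The mean was 5.35 ± 0.15 (SD, n = 4) in silenced cells and 6.52 ± 0.22 (SD, n = 2) in scramble cells, a difference of −1.17 (SE 0.19, 95% confidence interval −1.61 to −0.73, limma adjusted p = 0.00974). The fall passed with either siRNA alone, at −1.12 with siRNA 2 (SE 0.21, limma adjusted p = 0.0283) and −1.22 with siRNA 1 (SE 0.21, limma adjusted p = 0.0186). The siRNA 2 value was −0.48 with each array centred on its median (limma adjusted p = 0.189), and neither single call passed with only the compared groups in the fit (limma adjusted p = 0.0937 and 0.09). The siRNA 1 call was lost without any 1 of the 4 arrays in it (limma adjusted p 0.0644 to 0.113), and the siRNA 2 call without either scramble array or its replicate 1 (up to 0.152). The background control probe set with the same length and number of G and C bases stayed between 0.716 and 0.861 on all 10 arrays and differed by −0.02 between silenced and scramble cells. It lay below the detection floor on every array, so it cannot show how signals at the level of miR-1246 shift between arrays. The authors' deposited table gives −1.169 for miR-1246, with an unadjusted p of 8e-05, against 0.000426 in the limma fit here.

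miR-1308 had log2 signals of 11.94 and 11.83 with LINC00324 siRNA 2 and 11.42 and 11.53 with siRNA 1, against 10.96 and 10.91 in scramble cells. The 3 groups did not overlap, with siRNA 2 highest and scramble lowest. Of all tested probe sets, 6.33% had every silenced array above both scramble arrays, and 18.7% had siRNA 2 above siRNA 1. How many kept the order of all 3 groups was not counted. The miR-1308 mean was 11.68 ± 0.24 (SD, n = 4) in silenced cells and 10.93 ± 0.03 (SD, n = 2) in scramble cells, a difference of 0.74 (SE 0.12, 95% confidence interval 0.46 to 1.02, limma adjusted p = 0.00974). It passed with siRNA 2, at 0.95 (SE 0.14, limma adjusted p = 0.0151), where 9.94% of all probe sets passed, 1.20% higher and 8.73% lower. That call was lost without either scramble array or siRNA 2 replicate 1 (limma adjusted p 0.0766 to 0.0967) and with quantile normalization (0.0551) or only the compared groups (0.0897). With siRNA 1 the difference was 0.54 (SE 0.14, limma adjusted p = 0.0595), and miR-1246 was the 1 fragment called there, against 8.43% of all probe sets, 7.83% lower.

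Both calls rest on having the pair of scramble arrays. Without scramble replicate 1 the LINC00324 silencing difference was −1.01 for miR-1246 (limma adjusted p = 0.0955) and 0.77 for miR-1308 (limma adjusted p = 0.0892). Without scramble replicate 2 it was −1.32 (limma adjusted p = 0.0705) and 0.72 (limma adjusted p = 0.0714). Centring each array on its median, which moves the median of all tested probe sets to 0.26, put miR-1246 at −0.78 (limma adjusted p = 0.069) and miR-1308 at 1.13 (limma adjusted p = 0.0494). The split of all calls moved with it: 2 higher and 2 lower with centring, against 2 higher and 30 lower without, and for siRNA 2 alone 26 higher and 5 lower, against 4 higher and 29 lower. Quantile normalization gave 5 higher and 15 lower for LINC00324 silencing and 9 higher and 14 lower for siRNA 1, against 2 higher and 26 lower for siRNA 1 without it.

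**Figure D1:**
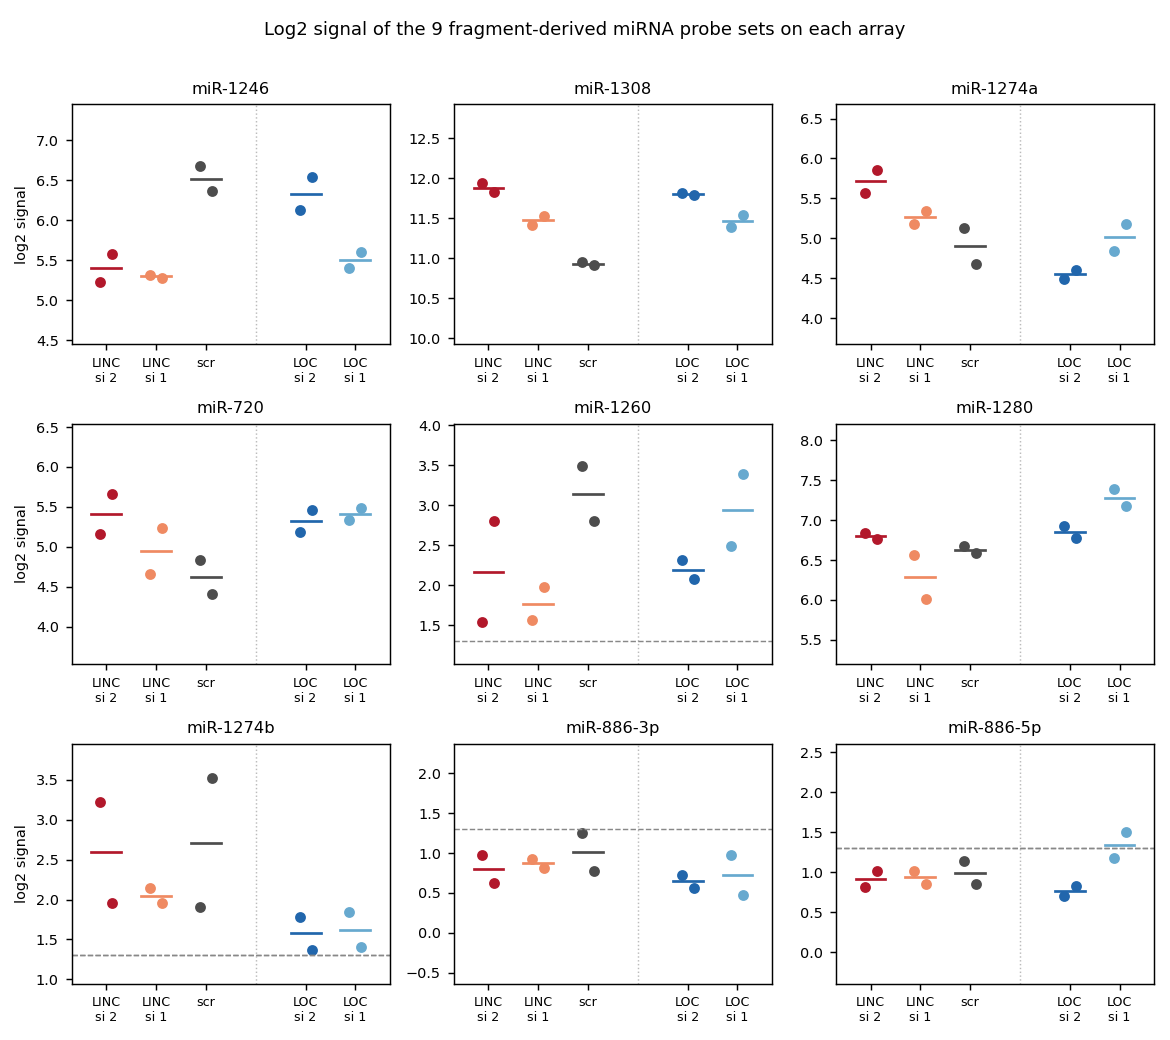
Log2 signal of each of the 9 probe sets on every array, 1 point per array and a bar at the mean of each group of 2. Groups run LINC00324 siRNA 2 (LINC si 2), LINC00324 siRNA 1 (LINC si 1) and scramble (scr), then, right of the dotted line and from another normalization run, LOC400043 siRNA 2 (LOC si 2) and siRNA 1 (LOC si 1). Panels have different levels but the same span, and the dashed line is the detection floor of 1.30. miR-1246 lies lower and miR-1308 higher on all LINC00324 arrays than on the scramble arrays, and both miR-886 probe sets stay near or below the floor.

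A lysine and a threonine tRNA fragment had higher values on most LINC00324-silenced arrays, but neither passed. miR-1274a, which matches the 3′ end of a lysine tRNA, had 5.57 and 5.86 with siRNA 2 and 5.18 and 5.35 with siRNA 1, against 5.13 and 4.68 in scramble cells. All 4 silenced arrays lay above both scramble arrays, and the mean difference was 0.58 (SE 0.19, limma unadjusted p = 0.0176, adjusted p = 0.116). Without scramble replicate 2 it was 0.35 (limma adjusted p = 0.493), and with each array centred on its median 0.97 (limma adjusted p = 0.0538). Such a separation upward was seen in 6.33% of all tested probe sets, and among the fragments in miR-1274a and miR-1308. Its largest single difference was with siRNA 2, at 0.81 (SE 0.22, limma adjusted p = 0.0605).

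miR-720, the 3′ end of a threonine tRNA, had 5.16 and 5.67 with siRNA 2 and 4.66 and 5.23 with siRNA 1, against 4.83 and 4.40 in scramble cells. The siRNA 2 arrays lay above scramble, as in 53 of 332 tested probe sets, and 1 siRNA 1 array lay between the scramble arrays. The mean difference was 0.56 (SE 0.24, limma adjusted p = 0.219), with 0.80 for siRNA 2 (SE 0.28, limma adjusted p = 0.119) and 0.33 for siRNA 1 (limma adjusted p = 0.578). Without scramble replicate 2 the mean difference was 0.35 (limma adjusted p = 0.694), with median centring 0.95 (limma adjusted p = 0.0653), and without siRNA 1 replicate 2 that of siRNA 1 was 0.04 (limma adjusted p = 0.978). With each array centred on its median, the siRNA 2 differences of miR-1274a (1.44, limma adjusted p = 0.0204) and miR-720 (1.43, limma adjusted p = 0.0236) passed. The siRNA 2 arrays are those with the lowest median signal.

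miR-1274b, a second 3′ lysine tRNA fragment, was near the floor and spread widely between replicates. It had 3.22 and 1.96 with siRNA 2 and 2.14 and 1.96 with siRNA 1, against 1.91 and 3.52 in scramble cells. Within-group gaps exceeded 1 log2 unit in both the siRNA 2 and the scramble groups, and the difference of −0.40 (SE 0.51, limma adjusted p = 0.704) had a 95% confidence interval of −1.60 to 0.81.

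Neither leucine tRNA fragment, miR-1260 or miR-1280, passed after LINC00324 silencing. miR-1260 had 1.54 and 2.80 with siRNA 2 and 1.56 and 1.98 with siRNA 1, against 3.49 and 2.80 in scramble cells. No silenced array was above a scramble array, but 1 siRNA 2 array had the value of scramble replicate 2. The difference was −1.18 (SE 0.42, 95% confidence interval −2.18 to −0.17) and did not pass (limma unadjusted p = 0.0278, adjusted p = 0.142). It was as large as that of miR-1246, but with a wider error and from signals near the floor. The mean over all arrays was 2.44 for miR-1260 and 5.81 for miR-1246. Whether the miR-1260 probe set also reads miR-1260b was not tested. With quantile normalization the miR-1260 difference was −0.65 (limma adjusted p = 0.479). The authors' deposited table gives −1.176 for miR-1260, with an unadjusted p of 0.01548.

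miR-1260b, whose printed sequence shares the miR-1260a seed, had 6.36 and 6.41 with siRNA 2 and 6.29 and 6.19 with siRNA 1, against 6.22 and 5.93 in scramble cells. Its difference was 0.24 (SE 0.14, limma adjusted p = 0.386), on the other side of 0 from miR-1260. miR-1280, also from a leucine tRNA, had 6.84 and 6.77 with siRNA 2 and 6.57 and 6.01 with siRNA 1, against 6.67 and 6.59 in scramble cells. The siRNA 1 arrays lay below scramble, as in 31.0% of all tested probe sets. The siRNA 2 arrays lay above scramble, as in 53 of 332. The mean difference was −0.08 (SE 0.18, 95% confidence interval −0.51 to 0.34, limma adjusted p = 0.834).

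The pair from the vault-like RNA was not detected and was not tested. miR-886-3p lay between 0.48 and 1.25 on the 10 arrays, below the floor on each. miR-886-5p lay between 0.70 and 1.51 and exceeded the floor on 1 array, LOC400043 siRNA 1 replicate 2.

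**Figure D2:**
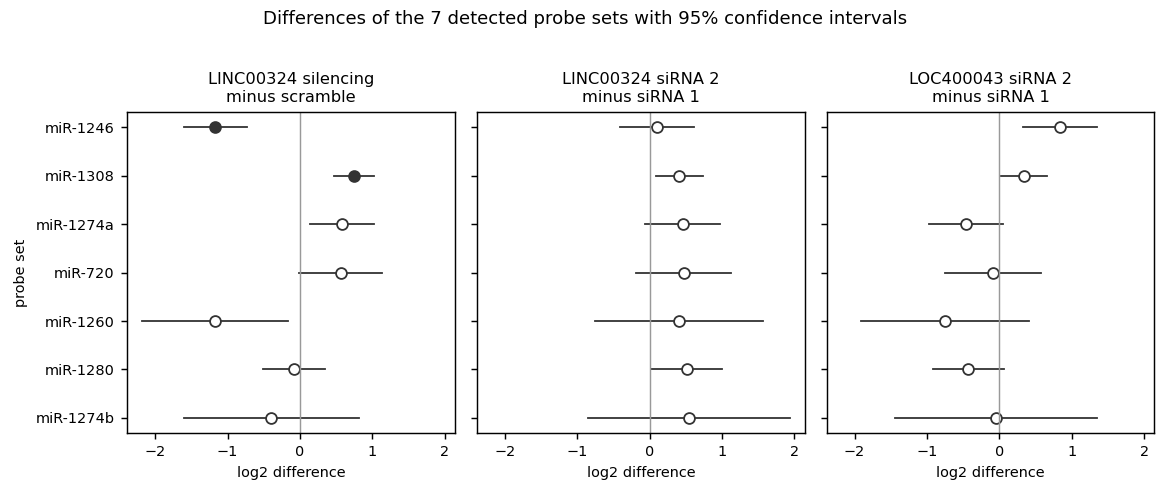
Log2 differences of the 7 detected probe sets in 3 comparisons, with 95% confidence intervals from limma. Filled points passed at an adjusted p under 0.05, and open points did not. The filled points are miR-1246 (−1.17) and miR-1308 (0.74) after LINC00324 silencing, and all 7 points of LINC00324 siRNA 2 minus siRNA 1 lie right of 0.

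The siRNAs against LINC00324 were compared directly to see where they differ. All 7 fragments had a positive difference of siRNA 2 minus siRNA 1, with a median of 0.45, against 149 of 332 and −0.04 over all tested probe sets. The list of other noncoding RNA fragments described last was also positive throughout, in 5 of 5 with a median of 0.42, and mirtrons were positive in 6 of 8. None passed with limma, against 2.11% of all probe sets, and at an unadjusted p under 0.05 there were miR-1308 and miR-1280, among 51 of the 332. miR-1308 differed by 0.41 (SE 0.14, 95% confidence interval 0.09 to 0.73, limma adjusted p = 0.218), and its arrays did not overlap, as in 18.7% of all tested probe sets in that direction. miR-1280 differed by 0.51 (SE 0.21, limma adjusted p = 0.301) and also did not overlap. The arrays of miR-1274a did not overlap either, at 0.45 (SE 0.22, limma adjusted p = 0.365). miR-1246 differed by 0.10, with a 95% confidence interval of −0.41 to 0.61. The siRNA 2 arrays have the lowest median signals of all 10 arrays. With each array centred on its median, the median difference of all tested probe sets was 0.45, and that of miR-1308 was 0.90, of miR-1280 1.01 and of miR-1274a 0.95, none past the threshold (limma adjusted p 0.0797 to 0.0933). With quantile normalization miR-1308 differed by 0.17 (limma adjusted p = 0.584). Without siRNA 1 replicate 2 miR-1280 differed by 0.24 (limma adjusted p = 0.614).

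Between the siRNAs against LOC400043, the U2 snRNA fragment had the lowest p-value of the fragments. miR-1246 had 6.13 and 6.54 with LOC400043 siRNA 2, against 5.40 and 5.60 with siRNA 1. The arrays did not overlap, and the difference of 0.84 (SE 0.21, 95% confidence interval 0.33 to 1.35) is 1.79-fold, but it did not pass over all probe sets (limma unadjusted p = 0.00597, adjusted p = 0.132). None of the 7 fragments passed with limma, against 1.51% of all tested, and miR-1246 and miR-1308 were at an unadjusted p under 0.05, among 48 probe sets.

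miR-1308 had 11.81 and 11.79 with LOC400043 siRNA 2, against 11.39 and 11.54 with siRNA 1. Its difference was 0.34 (SE 0.14, 95% confidence interval 0.02 to 0.66, limma adjusted p = 0.316), again with no overlap of arrays. The lysine fragment miR-1274a had 4.49 and 4.60 with siRNA 2, against 4.84 and 5.18 with siRNA 1, a difference of −0.46 (SE 0.22, limma adjusted p = 0.376), and of −0.29 without siRNA 1 replicate 2. With quantile normalization miR-1308 differed by 0.60 (limma adjusted p = 0.168).

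miR-1280 had 6.93 and 6.78 with LOC400043 siRNA 2, against 7.39 and 7.18 with siRNA 1, a difference of −0.43 (SE 0.21, limma adjusted p = 0.388). miR-1260 had 2.31 and 2.07 with siRNA 2, against 2.49 and 3.39 with siRNA 1, a difference of −0.75 (SE 0.49, limma adjusted p = 0.559). Its size rested on siRNA 1, at −1.20 without replicate 1 and −0.30 without replicate 2 of that group. miR-1274a, miR-1280 and miR-1260 were each lower on both siRNA 2 arrays than on both siRNA 1 arrays, a separation seen downward in 21.4% and upward in 22.3% of all tested probe sets. The groups overlapped for miR-720, with 5.18 and 5.46 for siRNA 2 and 5.33 and 5.49 for siRNA 1, and for miR-1274b, with 1.78 and 1.37 for siRNA 2 and 1.84 and 1.40 for siRNA 1.

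Against scramble, miR-1246 fell with LOC400043 siRNA 1, while its difference with siRNA 2 did not pass. In the second run the scramble arrays read 6.59 and 6.37 for miR-1246. Both siRNA 1 arrays lay below them. For the test these arrays were shifted to the first run. There they also lay below its scramble arrays, as in 35.4% of 322 probe sets. The difference was −0.99 (SE 0.21, limma adjusted p = 0.0463), 1.98-fold lower, where 6.21% of the 322 passed and 2.80% were lower. With median centring the calls were 17 higher and 3 lower, against 11 higher and 9 lower without. The siRNA 2 arrays overlapped scramble, with a difference of −0.15 (SE 0.21, 95% confidence interval −0.66 to 0.36, limma adjusted p = 0.796), where 1.55% passed. Over both siRNAs the difference was −0.57 (SE 0.19, limma adjusted p = 0.12), or −0.31 with each array centred on its median, and 1.55% of probe sets passed.

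The call with LOC400043 siRNA 1 was lost without any 1 of the 4 arrays in it, at −0.88 without scramble replicate 1 (limma adjusted p = 0.209) and −1.09 without scramble replicate 2 (limma adjusted p = 0.131). It was −0.88 without LOC400043 siRNA 1 replicate 1 (limma adjusted p = 0.189) and −1.09 without replicate 2 (limma adjusted p = 0.145). This comparison uses the same 2 scramble RNAs as the LINC00324 one, so their shared direction is not independent. miR-1260 read 2.87 and 2.92 on the scramble arrays of the second run. Its difference was −0.70 with siRNA 2 (SE 0.49, limma adjusted p = 0.54) and 0.05 with siRNA 1 (limma adjusted p = 0.973), and neither passed. The authors' deposited table gives −0.567 for miR-1246 and −0.325 for miR-1260 over both LOC400043 siRNAs, with unadjusted p of 0.10048 and 0.35277. In the limma fit here the unadjusted p was 0.0187 for miR-1246 and 0.468 for miR-1260. That fit gave each siRNA its own mean, so the error of a silencing difference leaves out the spread between siRNAs.

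The array also holds 18 mature probe sets of other animals with the same miRNA numbers, of which 9 were detected, and 11 hairpin probe sets, of which 1 was. They were matched by number only and hybridized the same human RNA on the same arrays, so they are not further samples. Whether each reads the same fragment as the human probe set was not tested. The mean over all arrays was 0.87 for orangutan miR-1246, against 5.81 for human miR-1246. Their tests come from a fit of all 20706 rows, of which 1.01% passed after LINC00324 silencing, 0.101% higher and 0.913% lower. How often silenced and scramble arrays separate was not counted over those rows. Among the 332 human probe sets tested, all silenced arrays were lower in 19.9% and higher in 6.33%. The detected readings had the sign of the human probe set in 9 of 9 cases after LINC00324 silencing, in 6 of 9 with its siRNA 2 and in 8 of 9 with its siRNA 1. With siRNA 2 both miR-1280 readings and the chimpanzee miR-1274b reading had the other sign. Over the 6 scramble and LINC00324 arrays the correlation with the human probe set lay between 0.961 for chimpanzee miR-1246 and −0.265 for chimpanzee miR-1274b.

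The chimpanzee miR-1246 probe set had 5.75 and 5.76 with LINC00324 siRNA 2 and 5.85 and 5.50 with siRNA 1, against 6.77 and 6.72 in scramble cells. All silenced arrays were lower, and the difference was −1.03 (SE 0.13, limma adjusted p = 0.0106). Between the LOC400043 siRNAs it differed by 0.79 (limma adjusted p = 0.164), where 0.140% of all rows passed, with 6.45 and 6.62 for siRNA 2 and 5.80 and 5.69 for siRNA 1.

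The pig miR-1308 probe set had 10.73 and 10.82 with LINC00324 siRNA 2 and 10.35 and 10.32 with siRNA 1, against 9.58 and 9.93 in scramble cells. The groups kept the order of the human probe set without overlap, and the difference from scramble was 0.80 (SE 0.13, limma adjusted p = 0.0239). The human mir-1308 hairpin probe set, meant for the precursor, read 2.38 and 2.48 with siRNA 2 and 2.12 and 2.10 with siRNA 1, against 1.71 and 1.63 in scramble cells. It rose by 0.60 (SE 0.11, limma adjusted p = 0.0387). Its mean over all arrays was 1.93, near the detection floor, against 11.51 for the human miR-1308 probe set. Whether the hairpin probe set reads the precursor or the fragment itself was not tested. The orangutan miR-1246 probe set and the human mir-1246 hairpin probe set were not detected.

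**Figure D3:**
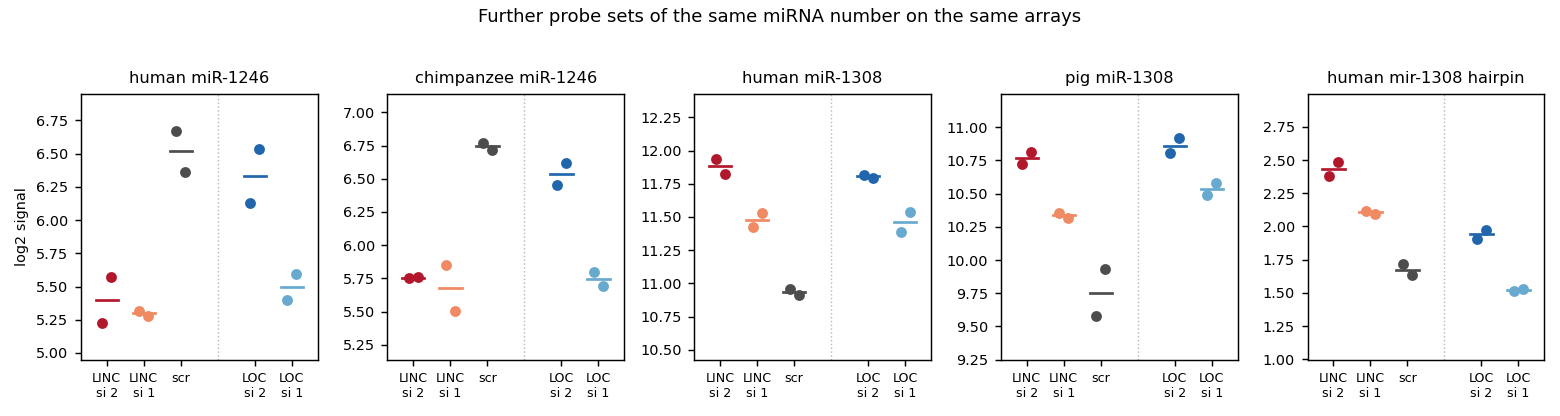
Log2 signal by array for the human and chimpanzee miR-1246 probe sets and for the human, pig and human hairpin miR-1308 probe sets, 1 point per array and a bar at the mean of each group of 2. Groups run LINC00324 siRNA 2, siRNA 1 and scramble, then LOC400043 siRNA 2 and siRNA 1 from another run right of the dotted line. The miR-1246 readings are lower and the miR-1308 readings higher on the LINC00324 arrays than on scramble. In all 5 panels, which share the same arrays, the LOC400043 siRNA 2 arrays lie above the siRNA 1 arrays. None of these LOC400043 differences passed, and 22.3% of the 332 human probe sets tested separated this way.

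The other readings did not pass. The mouse miR-1274a probe set differed by 0.64 (SE 0.15, limma adjusted p = 0.123) and was higher on all silenced arrays. The chimpanzee miR-720 probe set differed by 0.80 (SE 0.23, limma adjusted p = 0.263) and was higher on all silenced arrays. The mouse miR-720 probe set differed by 0.22 (limma adjusted p = 0.889), and its arrays overlapped. The orangutan miR-1260 probe set differed by −1.29 (SE 0.42, limma adjusted p = 0.363) and was lower on all silenced arrays. The chimpanzee and orangutan miR-1280 probe sets differed by −0.19 and −0.29, and each was lower on all silenced arrays. The human miR-1280 probe set instead lay above scramble with siRNA 2. The chimpanzee miR-1274b probe set differed by −0.09. The means of all 5 miR-886 probe sets of other primates were below the floor, with 1 or 2 arrays above it for 3 of them and a highest value of 2.16, for the rhesus macaque miR-886-3p probe set.

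The mean of the 7 detected fragments was 5.64 and 5.78 with LINC00324 siRNA 2 and 5.26 and 5.33 with siRNA 1, against 5.67 and 5.61 in scramble cells, so the siRNA 1 arrays were lowest. It was 5.52 and 5.52 with LOC400043 siRNA 2, against 5.53 and 5.68 with siRNA 1. Over the 6 scramble and LINC00324 arrays, which share the group differences above, miR-1274a and miR-720 went together most closely of all pairs of fragments (r = 0.948), and miR-1246 and miR-1308 went opposite ways (r = −0.849). The human probe sets outside the 9 whose pattern was most like the fragment mean over these 6 arrays were miR-1292 (r = 0.88), miR-1268 (r = 0.871), miR-940 (r = 0.86), miR-4270 (r = 0.852) and miR-1234 (r = 0.849). Over the 4 LOC400043 arrays the same probe sets had r of −0.347, 0.818, −0.469, 0.515 and −0.0345.

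Other miRNA entries, listed as noncoding RNA fragments or as mirtrons, were read as a background for the 9. Of 10 further probe sets from ribosomal, Y, small nucleolar or mitochondrial RNAs, 5 were tested after LINC00324 silencing and 0 passed with limma, with a median difference of −0.64. Examples were miR-1979, a Y RNA fragment, at −1.58 (SE 0.54, limma adjusted p = 0.129), miR-1975, another Y RNA fragment, at −0.64 (limma adjusted p = 0.316), and miR-1826, a ribosomal RNA fragment, at 0.32 (limma adjusted p = 0.55). Of 15 probe sets listed as mirtrons, a class of miRNAs released by splicing of a short intron, 8 were tested, 1 fell and 7 did not pass. Whether each of the 15 is made that way was not tested. The probe set that fell was miR-1228-star, at 8.02 in silenced and 9.03 in scramble cells (2-fold lower, limma adjusted p = 0.0123). Beside the 0 of 5 and 1 of 8 in these lists, 9.04% of all 332 tested probe sets passed lower and 0.602% higher.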

How the data were processed

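Total RNA was measured on Affymetrix miRNA 2.0 arrays, per the labels' protocols. The deposited log2 signals per probe set were normalized by the authors. Their 2 human tables, 1 per target, add log2 fold changes and p-values, per the file headers. The submitters' processing notes name limma. The normalization method is not given in the sources used here.

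Group means were fitted to all 10 arrays with limma 3.58.1 (R 4.3.3), with contrasts, eBayes and Benjamini-Hochberg adjustment at 0.05 over the 332 detected human mature probe sets. The LOC400043 table gives the scramble arrays different values, so it is a second run. For contrasts with scramble, each LOC400043 value was shifted by the gap between the scramble means of the runs, for 322 probe sets. In that table, 4 per-sample columns match no label and were not used. Alternatives were the floor, array centring, quantile normalization, the variance model, the samples fitted, a replicate block and leaving out each array. Named are all 9 fragments, other-species and hairpin probe sets of the same numbers, up to 4 examples per list by mean signal, and the 5 most alike patterns. Members and lists were chosen with earlier results of these data known. Figures were drawn with matplotlib.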

Additional observations from a re-analysis of the deposited data

How the results depend on the processing

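The number of fragments past the threshold depended on the settings. After LINC00324 silencing it was 2, and 1 with median centring (miR-1308), and 0 to 2 when 1 array was left out, with 0 without either scramble array. For LINC00324 siRNA 2 against scramble it was 2, and 3 with the stricter floor, where miR-1274a joined, or with median centring, where miR-1274a and miR-720 joined and miR-1246 was lost. It was 0 with quantile normalization or with only the groups compared in the fit, and 0 to 2 without 1 array. For LINC00324 siRNA 1 it was 1, and 2 with the stricter floor, quantile normalization, or a variance trend with robust moderation, where miR-1308 joined. It was 0 with median centring, with only the groups compared, and without any 1 array. For siRNA 2 minus siRNA 1 it was 0 with either target, and 1 (miR-1308) with the variance trend. For LOC400043 siRNA 1 against scramble it was 1, and 0 without a floor, with median centring, quantile normalization, only the groups compared, or any 1 array left out. Over LOC400043 silencing and siRNA 2 against scramble it was 0 under every setting run. The cause of these changes was not tested.

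Replicate numbers did not pair the samples: deviations of same-numbered arrays correlated at −0.158 to 0.161 over 10 pairs of groups. With the replicate number as a block, the count for LOC400043 siRNA 1 was 0, with miR-1246 at −0.99 (limma adjusted p = 0.065), and the other counts were unchanged.

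Signs turned only for differences that had not passed. With median centring these were miR-1280 after LINC00324 silencing (0.30), miR-1274b with LINC00324 siRNA 2 (0.51) and miR-1246 with LOC400043 siRNA 2 (0.066). With quantile normalization they were miR-1274b after LINC00324 silencing (0.16) and with its siRNA 2 (0.58), miR-1260 after LOC400043 silencing (0.13) and miR-1246 with LOC400043 siRNA 2 (0.0049). On the value table as deposited, miR-1260 with LOC400043 siRNA 1 was −0.20. With 1 array left out, miR-1274b ranged over −1.20 to 0.41 after LINC00324 silencing, −0.93 to 0.68 with siRNA 2 and −1.47 to 0.14 with siRNA 1, and miR-1280 over −0.22 to 0.053 after silencing. For LINC00324 siRNA 2 minus siRNA 1, miR-1246 ranged over −0.073 to 0.28, miR-1260 over −0.23 to 1.03 and miR-1274b over −0.092 to 1.17. For LOC400043 siRNA 2 minus siRNA 1, miR-1274b ranged over −0.27 to 0.17 and miR-720 over −0.23 to 0.045. Against scramble, miR-1260 ranged over −0.40 to 0.50 with LOC400043 siRNA 1 and miR-1246 over −0.35 to 0.057 with siRNA 2.

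Counts of all probe sets past the threshold moved as well. Over the settings that tested the same probe sets, they lay between 0 and 39 for LINC00324 silencing (32 as reported), 0 and 42 for its siRNA 2 (33), 0 and 35 for its siRNA 1 (28) and 0 and 10 between its siRNAs (7), of 332. They lay between 0 and 41 for LOC400043 silencing (5), 0 and 11 for its siRNA 2 (5) and 0 and 45 for its siRNA 1 (20), of 322, and 0 and 19 between its siRNAs (5), of 332. With the stricter floor, 36, 12 and 35 of 163 passed in the 3 comparisons of LOC400043 with scramble, in that order, and 3 of 170 between its siRNAs. Without a floor, 13 of 1080 passed for its siRNA 1. Over all 20706 rows, 210 passed for LINC00324 silencing, 115 for its siRNA 2, 157 for its siRNA 1, 9 between its siRNAs and 29 between the LOC400043 siRNAs.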
